A study of Mus musculus with 8 samples.

Results

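The 10 genes described here encode the Kazal-type inhibitors Spink5, Spink7 and Spink12, the kallikreins Klk5, Klk7, Klk8, Klk10, Klk11 and Klk13, and the membrane protease matriptase (St14), and they are 10 of the 21690 genes in the deposited expression table. They were selected on their measured levels in the Experimental and Control libraries of these data, so their differences between the groups are given as a description. Where a count of them past a threshold is printed, it stands beside the share of all genes and supports nothing. RNA-seq libraries were made from epidermis taken from the backs of mice on postnatal day 5. The 4 Experimental libraries came from animals with a doxycycline-dependent transactivator under a keratin 5 promoter and a tetracycline-operator Cre (K5rTA tetOCre) and the genotype Esrp1flox/flox; Esrp2-/-. The 4 Control libraries came from Esrp1flox/flox; Esrp2-/- animals without Cre. Dams of both groups were on high-dose doxycycline chow from embryonic day 17 until day 5 after birth. By genotype both groups lack Esrp2, so the labelled comparison is of Esrp1 deletion on top of Esrp2 loss, and deletion is restricted to cells in which the keratin 5 promoter is or was active. ESRP1 and ESRP2 are epithelial splicing regulators.

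Cornified cells at the skin surface are held together by corneodesmosomes, and shedding them requires proteases to cut those junctions. Tissue kallikreins are secreted serine proteases that do this in the outer epidermis, with KLK5 able to activate other kallikreins and KLK7 cutting corneodesmosin. The product of Spink5, LEKTI, is a chain of Kazal-type domains that inhibits these kallikreins, and loss of SPINK5 causes the human skin disease Netherton syndrome. Matriptase is a membrane-anchored protease that, in mice lacking Spink5, acts upstream of kallikrein activity.

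Levels are in TPM (transcript abundance as a share of its library), which are scaled by transcript length, so that genes can be compared with each other, and values at or under 1 TPM are listed at 0. Differences are Experimental minus Control on the log2(TPM + 1) scale from a limma fit over 10682 genes with a mean of at least 1 TPM, and they understate the change of low genes. Values after ± are SD with n = 4 in each group. All 10 genes passed that filter. Of the 10, 2 passed a limma adjusted p of 0.05, Spink7 and Spink12, both higher in Experimental epidermis, and 0 passed it as lower. Among all tested genes 2.46% passed, 0.917% as higher and 1.54% as lower. For 4 of the 10 (Spink7, Spink12, Klk8 and Klk11) every Experimental library was above every Control library, against 2.70% of tested genes, and for 1 (Klk5) every Experimental library was below, against 9.94%. The median log2 difference over the 10 genes was 0.37, beside -0.18 over all tested genes. An unadjusted limma p under 0.05 was reached by 16.9% of all tested genes. Since these genes were chosen by the same contrast, nothing is read from these counts. Bulk RNA cannot tell fewer cells of a type from less RNA per cell.

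Libraries are numbered 1 to 4 within a group in the order of the table, and the labels call them biological replicates without naming litters, so p-values measure the spread between these samples. The targeted gene Esrp1 had 65.0, 49.8, 75.6 and 66.5 TPM in Experimental epidermis and 135, 131, 133 and 162 TPM in Control epidermis, a log2 difference of -1.13 (SE 0.17, limma adjusted p 0.0112, or 0.154 with Experimental libraries 2 and 4 left out). Esrp2, labelled as lost in both groups, was listed at 4.98, 3.25, 5.28 and 4.22 TPM in Experimental epidermis and 3.07, 0, 2.14 and 3.31 TPM in Control epidermis, a log2 difference of 0.73 (SE 0.25, limma adjusted p 0.176), so its transcript was not at 0 in 7 of the 8 libraries. A gene-level TPM can include exons outside the deleted parts, which the labels do not give. Between 10401 and 11077 genes were above 1 TPM in Experimental libraries and between 10523 and 11640 in Control libraries, and the read depth is unknown.

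**Figure D1:**
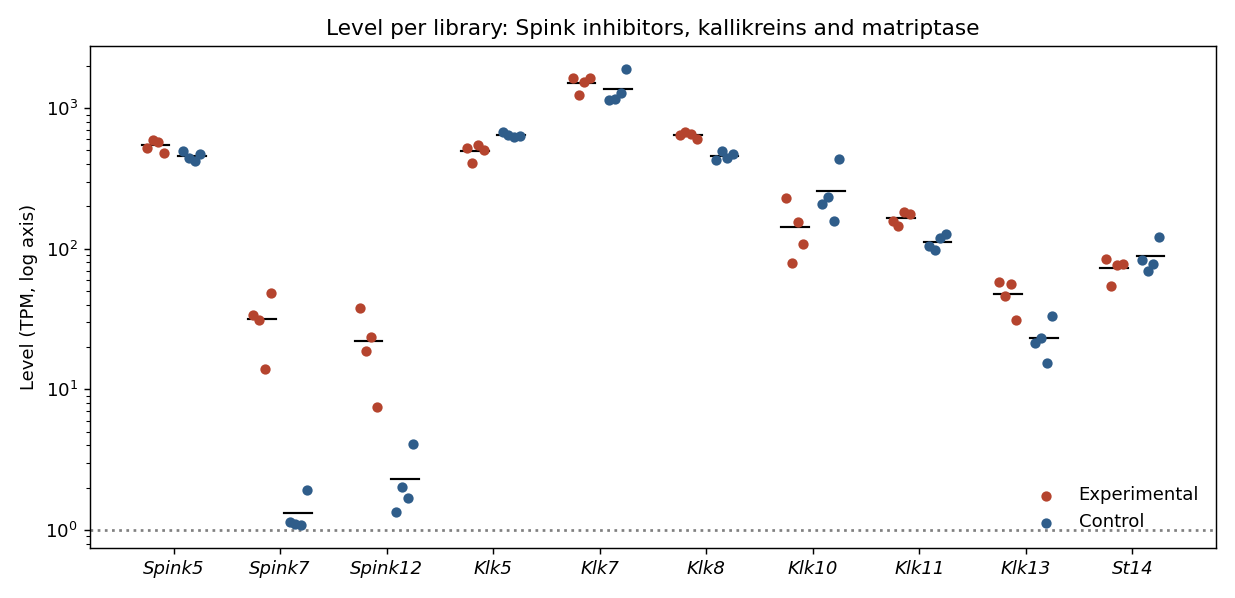
TPM of each gene in every library on a log axis, with a point per library (Experimental left of Control for each gene), a bar at the group mean and a dotted line at 1 TPM, at or under which values are listed at 0. Spink7 and Spink12 sit between 7.55 and 48.1 TPM in Experimental libraries and between 1.09 and 4.09 TPM in Control libraries, while Klk7 is at 1138 TPM or more in all 8.

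Spink5, the main epidermal Kazal-type inhibitor, was the most abundant of the 3 Spink transcripts in every library. It had 524, 596, 579 and 477 TPM in Experimental epidermis and 497, 443, 419 and 472 TPM in Control epidermis. The groups overlapped, since the lowest Experimental library was below the highest Control library. Spink5 averaged 544 ± 53.9 TPM in Experimental epidermis and 458 ± 33.9 TPM in Control epidermis (SD, n = 4 each), with a log2 difference of 0.25 (SE 0.16).

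Spink7, a small single-domain Kazal-type inhibitor, had 33.6, 31.3, 14.0 and 48.1 TPM in Experimental epidermis and 1.14, 1.09, 1.09 and 1.94 TPM in Control epidermis. Every Experimental library was above every Control library, and the Control libraries lay just above the 1 TPM limit. Within the Experimental group the levels still spanned a range from 14.0 TPM in library 3 to 48.1 TPM in library 4. The log2 difference was 3.72 (SE 0.32), and it lay between 3.32 and 4.41 under 18 other settings, which include each library left out in turn.

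Spink12, another member of the family, had 37.9, 18.8, 23.7 and 7.55 TPM in Experimental epidermis and 1.34, 2.02, 1.68 and 4.09 TPM in Control epidermis. The groups did not overlap, but the order of libraries within the Experimental group was not that of Spink7, since library 4 was the highest for Spink7 and the lowest for Spink12. In both genes Control library 4 was the highest of its group. The log2 difference of Spink12 was 2.68 (SE 0.42), with a range of 2.36 to 3.30 over the same settings. Without Experimental library 3, Spink12 no longer passed the limma threshold, while Spink7 passed in every setting.

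Although Spink7 and Spink12 differed most between the groups, they were the smaller part of the TPM of the 3 Spink genes in every library. Their summed level was 71.5, 50.1, 37.7 and 55.7 TPM in Experimental epidermis and 2.48, 3.12, 2.77 and 6.03 TPM in Control epidermis. That was 12.002%, 7.76%, 6.12% and 10.4% of the TPM of the 3 Spink genes in Experimental libraries and 0.498%, 0.698%, 0.657% and 1.26% in Control libraries. The 3 together came to 598 ± 47.9 TPM in Experimental epidermis and 461 ± 34.2 TPM in Control epidermis (SD, n = 4 each). Every Experimental sum, from 533 to 646 TPM, was above every Control sum, from 421 to 499 TPM, while Spink5 alone overlapped between the groups. The sum holds Spink7 and Spink12, which were chosen on this contrast, so nothing is read from that separation.

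The mouse genes of the Spink group lie on chromosome 18 (GRCm38, GENCODE M21): Spink5 at 43963235 to 44022501 and Spink12 at 44104407 to 44108543 on the plus strand, and Spink7 at 62592194 to 62596327 on the minus strand. The other Spink genes of the list were little expressed, with 7 of 10 at 0 in every library and 2 tested. Neither of those 2 passed the limma threshold (1 had an unadjusted p under 0.05). Spink1 had 1.5005, 1.87, 1.61 and 1.61 TPM in Experimental epidermis and 0, 0, 1.06 and 1.49 TPM in Control epidermis, with a limma adjusted p of 0.291. Spink6 had a limma adjusted p of 0.607.

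Klk5, the trypsin-like protease that can activate other kallikreins, had 517, 410, 551 and 507 TPM in Experimental epidermis and 672, 641, 623 and 636 TPM in Control epidermis. It was the only one of the 6 kallikreins with every Experimental library below every Control library. Klk5 averaged 496 ± 60.6 TPM in Experimental epidermis and 643 ± 20.8 TPM in Control epidermis (SD, n = 4 each), and the log2 difference was -0.38 (SE 0.16), or -0.17 with median centring and -0.19 with quantile normalization.

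Klk8, a trypsin-like protease also known as neuropsin, had 649, 678, 651 and 605 TPM in Experimental epidermis and 427, 493, 442 and 470.2 TPM in Control epidermis. Klk11, a further secreted kallikrein, had 158, 145, 183 and 178 TPM in Experimental epidermis and 104, 97.7, 120.2 and 127 TPM in Control epidermis. Neither gene's groups overlapped. Klk8 was 1.41-fold higher in Experimental epidermis (log2 difference 0.50, SE 0.15) and Klk11 1.48-fold higher (log2 difference 0.56, SE 0.16). With these, Klk8 ranked above Klk5 in Experimental epidermis, and Klk5 above Klk8 in Control epidermis.

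The promoters of Klk5, Klk8 and Klk11 are shown because these are the 3 kallikreins whose group levels did not overlap, Klk5 in one direction and Klk8 and Klk11 in the other. Each is the RefSeq window from 250 bases before to 50 bases after a start (GRCm38.p6, plus strand), at chr7:43842019-43842318 for Klk5, chr7:43797327-43797626 for Klk8, and chr7:43774367-43774666 and chr7:43776079-43776378 for the pair of Klk11 starts. Capitals mark matches, on either strand, to the C/EBP motif TTNNGCAA or the KLF motif CCACCC.
Klk5 promoter: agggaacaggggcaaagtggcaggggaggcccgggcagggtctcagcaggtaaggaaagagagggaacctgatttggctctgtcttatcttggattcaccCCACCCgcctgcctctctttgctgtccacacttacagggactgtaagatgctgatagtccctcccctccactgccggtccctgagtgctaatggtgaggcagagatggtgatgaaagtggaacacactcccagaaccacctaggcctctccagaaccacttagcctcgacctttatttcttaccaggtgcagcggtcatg
Klk8 promoter: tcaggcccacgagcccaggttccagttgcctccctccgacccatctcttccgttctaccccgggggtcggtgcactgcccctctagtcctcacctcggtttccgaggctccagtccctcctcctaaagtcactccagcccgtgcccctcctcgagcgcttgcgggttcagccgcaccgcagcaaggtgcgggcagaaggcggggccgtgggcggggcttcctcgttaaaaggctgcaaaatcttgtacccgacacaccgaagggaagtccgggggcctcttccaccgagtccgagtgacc
Klk11 upstream promoter: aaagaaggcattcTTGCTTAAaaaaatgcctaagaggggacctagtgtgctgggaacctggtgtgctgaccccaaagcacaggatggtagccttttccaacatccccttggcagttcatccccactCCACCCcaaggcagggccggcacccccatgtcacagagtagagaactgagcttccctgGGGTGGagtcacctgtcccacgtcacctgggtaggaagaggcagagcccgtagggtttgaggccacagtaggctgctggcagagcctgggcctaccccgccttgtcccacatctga
Klk11 downstream promoter: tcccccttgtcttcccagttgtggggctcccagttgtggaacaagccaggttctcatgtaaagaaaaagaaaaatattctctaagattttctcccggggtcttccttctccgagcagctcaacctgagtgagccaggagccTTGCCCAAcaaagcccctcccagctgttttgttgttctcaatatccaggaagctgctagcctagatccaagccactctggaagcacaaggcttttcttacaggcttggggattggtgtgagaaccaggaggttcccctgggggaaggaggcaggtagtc
No window of the 6 kallikreins held the AP-1 motif TGANTCA, the GRHL motif AACNGGTT or the TATA motif TATAAA, which stood in 7.81%, 2.09% and 13.6% of all 32851 promoter windows. The KLF letters stood in 31.5% and the C/EBP letters in 10.8% of all windows. Klk5 had a KLF match at -150, the Klk11 upstream window had KLF matches at -124 and -66 and a C/EBP match at -237, the Klk11 downstream window had a C/EBP match at -109, and Klk8 had no match to any of the 5 motifs. KLF matches also stood in the windows of Klk7, Klk10 and Klk13, whose group levels overlapped. Matches to different motifs did not overlap. A match is a run of letters and was not tested as a binding site.

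Klk7, the chymotrypsin-like protease that cuts corneodesmosin, was the most abundant of the 10 genes in every library. It had 1644, 1237, 1524 and 1626 TPM in Experimental epidermis and 1138, 1162, 1286 and 1907 TPM in Control epidermis. The groups overlapped, and Control library 4 was the highest of all 8. The log2 difference was 0.16 (SE 0.22), and it became -0.06 when Control libraries 1 and 2 were left out.

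Klk10, a kallikrein of the same cluster, had 229.8, 79.1, 153.9 and 108 TPM in Experimental epidermis and 207, 235, 158 and 434 TPM in Control epidermis. Experimental libraries 2, 3 and 4 were below every Control library, and Experimental library 1 was above 2 of them. Klk10 averaged 143 ± 65.7 TPM in Experimental epidermis and 259 ± 121 TPM in Control epidermis (SD, n = 4 each), and the log2 difference of -0.86 (SE 0.37) lay between -1.12 and -0.35 over the 18 other settings. Klk13 had 58.5, 45.8, 56.2 and 31.2 TPM in Experimental epidermis and 21.3, 23.1, 15.5 and 33.3 TPM in Control epidermis. Experimental library 4 was below Control library 4 and the other 3 Experimental libraries were above every Control library, so the groups overlapped at 1 library. Its mean was 2.06-fold higher in Experimental epidermis, with a log2 difference of 1.02 (SE 0.26).

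The summed level of the 6 kallikreins overlapped between the groups, at 3257, 2594, 3119 and 3055 TPM in Experimental epidermis and 2570, 2653, 2644 and 3607 TPM in Control epidermis. The share of each gene in that sum is given as a description. Klk8 was 19.8% to 26.1% of it in Experimental libraries and 13.035% to 18.6% in Control libraries. Klk11 was 4.86% to 5.87% of it in Experimental libraries and 3.53% to 4.54% in Control libraries. Klk13 was 1.02% to 1.80% of it in Experimental libraries and 0.587% to 0.924% in Control libraries. The ranges of these 3 did not overlap, and a share within a library does not depend on how libraries are scaled. The 6 shares are tied to each other and come from levels on which the genes were chosen. Nothing is therefore read from that separation. Klk5 was 15.8% to 17.7% of the sum in Experimental libraries and 17.6% to 26.1% in Control libraries, ranges that touch only at Control library 4. Klk10 was 3.05% to 7.06% in Experimental libraries and 5.96% to 12.028% in Control libraries, and Klk7 was 47.7% to 53.2% in Experimental libraries and 43.8% to 52.9% in Control libraries. The 3 Spink genes summed to 18.3%, 24.9%, 19.8% and 17.4% of the kallikrein TPM in Experimental epidermis and 19.4%, 16.8%, 15.9% and 13.2% in Control epidermis, so the groups overlapped in that ratio.

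**Figure D2:**
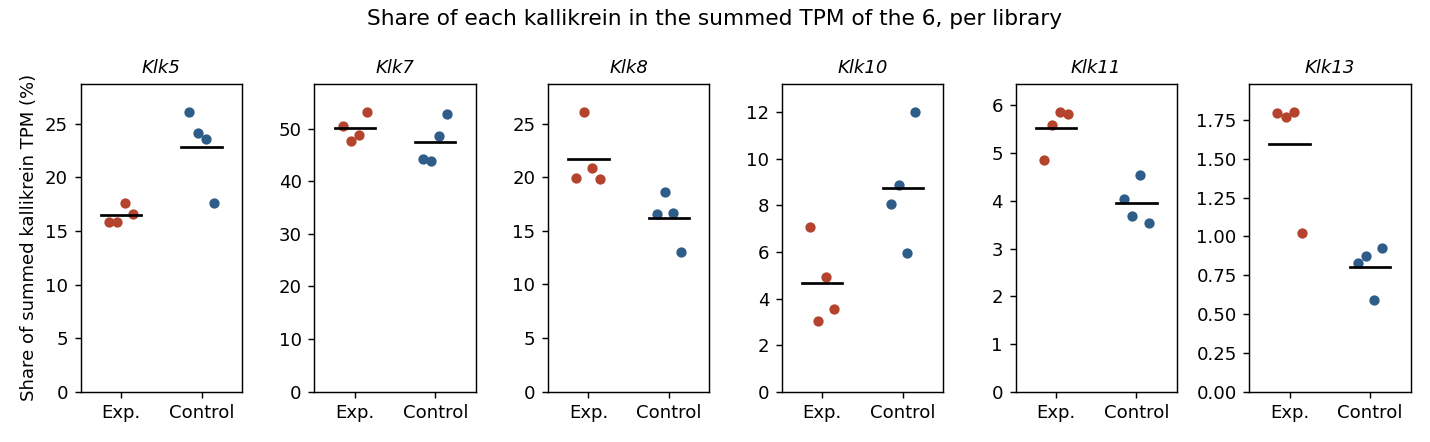
Share of each kallikrein in the summed TPM of the 6, in percent, with a point per library, Experimental left of Control and a bar at the group mean; each panel has its own axis from 0. The shares of Klk8, Klk11 and Klk13 are higher in all Experimental libraries than in all Control libraries, and Klk7 holds 43.8% to 53.2% in all 8.

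In order of mean TPM, Experimental epidermis ran Klk7, Klk8, Spink5, Klk5, Klk11, Klk10, St14, Klk13, Spink7 and Spink12. Klk7 stood apart from Klk8, Klk8 from Spink5, and Klk5 from Klk11, while all other neighbours overlapped in their libraries. Control epidermis ran Klk7, Klk5, Klk8, Spink5, Klk10, Klk11, St14, Klk13, Spink12 and Spink7. There, Klk8 overlapped Spink5, Spink5 overlapped Klk10, Klk11 overlapped St14 and Spink12 overlapped Spink7, and the other neighbours stood apart.

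Matriptase (St14, chromosome 9, 31089402 to 31131853, minus strand) had 84.0, 54.4, 76.1 and 78.1 TPM in Experimental epidermis and 83.6, 69.8, 77.3 and 121.9 TPM in Control epidermis. The groups overlapped, with a log2 difference of -0.25 (SE 0.22) that was -0.09 without Control library 4, -0.12 without Experimental library 2 and -0.04 with median centring. Of 16 partners and relatives in the table, 11 were tested with limma and 0 passed the threshold, with 4 of the 11 at an unadjusted p under 0.05 (16.9% of all tested genes reached it) and 4 above and 7 below 0. Prostasin (Prss8), which works with matriptase in the epidermis, averaged 93.1 ± 15.6 TPM in Experimental epidermis and 114 ± 61.1 TPM in Control epidermis (limma adjusted p 0.796), and without Control library 4 its log2 difference was 0.15 instead of -0.17. The matriptase inhibitor HAI-1 (Spint1) averaged 61.5 ± 13.1 TPM in Experimental epidermis and 90.5 ± 26.8 TPM in Control epidermis (limma adjusted p 0.272). HAI-2 (Spint2) averaged 267 ± 38.7 TPM in Experimental epidermis and 359 ± 33.8 TPM in Control epidermis, with every Experimental library below every Control library and a limma adjusted p of 0.226. The 2 of lowest p were the serine protease Prss27, with 8.98, 10.7, 11.9 and 2.70 TPM in Experimental epidermis and 27.6, 26.1, 16.3 and 24.4 TPM in Control epidermis (limma adjusted p 0.0663), and Tmprss11e, with 14.0, 4.83, 10.04 and 8.80 TPM in Experimental epidermis and 13.4, 22.1, 36.9 and 100.5 TPM in Control epidermis (limma adjusted p 0.118).

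Other kallikreins were mostly silent, with 14 of 20 at 0 in every library and 4 tested. None of those 4 passed the limma threshold, and 1 had an unadjusted p under 0.05. Klk9 had 224, 160, 227 and 248 TPM in Experimental epidermis and 106, 88.7, 141 and 253 TPM in Control epidermis, and Control library 4 was the highest of all. Klk6 had 240, 129, 164 and 167 TPM in Experimental epidermis and 120, 150, 76.3 and 162 TPM in Control epidermis. Klk14, whose human product is inhibited by LEKTI, was listed at 0 in all 4 Experimental libraries and at 0, 1.08, 4.93 and 5.05 TPM in Control epidermis. Klk15 had 1.59, 0, 0 and 2.79 TPM in Experimental epidermis and 1.01, 3.22, 19.6 and 14.9 TPM in Control epidermis (limma adjusted p 0.257). Both Klk14 and Klk15 were high in Control libraries 3 and 4.

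Among other protease inhibitors, Serpina12 and Serpinb2 rose, calls that were lost when any single Experimental library was left out. Of 17 tested with limma, 2 rose and 0 fell, beside 0.917% and 1.54% of all tested genes, 14 were above 0, and the median log2 difference was 0.71, against -0.18 over all tested genes. This list was chosen with earlier results of these data known, so nothing is read from these counts. Serpina12 (vaspin), a serpin that inhibits KLK7 in humans, had 336, 359, 383 and 315 TPM in Experimental epidermis and 182, 189.5, 157 and 221 TPM in Control epidermis. It was 1.86-fold higher, with every Experimental library above every Control library (log2 difference 0.90, SE 0.17, limma adjusted p 0.0226). Serpinb2, a serpin known as plasminogen activator inhibitor 2, had 187, 117, 175 and 141 TPM in Experimental epidermis and 96.3, 89.6, 59.4 and 58.9 TPM in Control epidermis, with no overlap (log2 difference 1.03, SE 0.23, limma adjusted p 0.0453). Leaving out any Experimental library, or Control library 2 or 3, took Serpina12 back over the 0.05 threshold, to a limma adjusted p of 0.0589 to 0.0869, and took Serpinb2 to 0.06 to 0.145. Serpinb2 also missed it with no filter on low values (limma adjusted p 0.0596) and with a minimum mean of 5 TPM (0.0506). Slpi, a secreted inhibitor of leukocyte proteases, had 42.2, 5.25, 8.96 and 16.1 TPM in Experimental epidermis and 1.103, 3.24, 1.62 and 3.83 TPM in Control epidermis (limma adjusted p 0.0619).

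**Figure D3:**
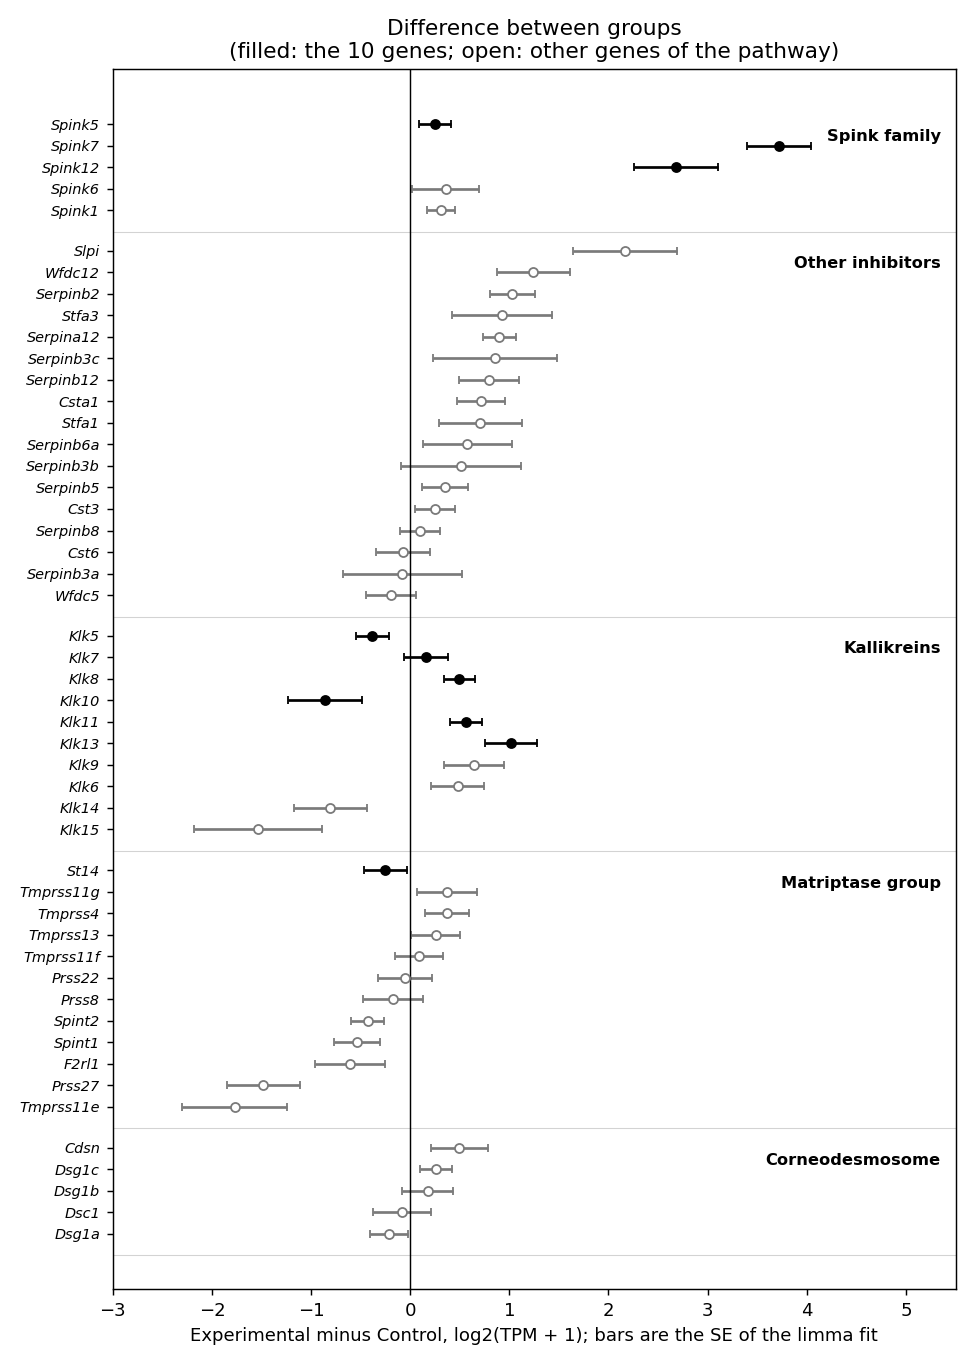
Experimental minus Control difference on the log2(TPM + 1) scale for the 10 genes (filled) and the tested genes of the other inhibitor, kallikrein, matriptase and corneodesmosome lists (open), with bars of 1 SE from the limma fit. Spink7 at 3.72 and Spink12 at 2.68 lie to the right of the rest, and the kallikreins spread to both sides of 0.

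The substrates showed no call with all 8 libraries. Of the 5 corneodesmosome genes tested with limma, 0 passed the threshold and 0 had an unadjusted p under 0.05. Corneodesmosin (Cdsn), the extracellular adhesion protein that KLK7 cuts, averaged 1021 ± 165 TPM in Experimental epidermis and 767 ± 367 TPM in Control epidermis (limma adjusted p 0.413). Cdsn passed in 2 of 18 other settings. These were without Control library 4 (log2 difference 0.79, limma adjusted p 0.0423) and without Control libraries 3 and 4 (0.86, limma adjusted p 0.0161). Dsg1c, a desmoglein, averaged 3.15 ± 0.64 TPM in Experimental epidermis and 2.44 ± 0.20 TPM in Control epidermis (limma adjusted p 0.447). Of 17 other stratum corneum proteases tested with limma, 0 passed and 5 had an unadjusted p under 0.05. Blmh, bleomycin hydrolase, which degrades filaggrin products, averaged 588 ± 59.7 TPM in Experimental epidermis and 368 ± 12.04 TPM in Control epidermis (limma adjusted p 0.0566). Capn12, a calpain, averaged 11.7 ± 5.62 TPM in Experimental epidermis and 40.7 ± 23.0 TPM in Control epidermis (limma adjusted p 0.107).

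Signals known to follow excess kallikrein activity in skin were listed as cytokines, chemokines and related genes. Of 6 tested with limma, 1 rose and 0 fell, all 6 were above 0, and 5 had an unadjusted p under 0.05, beside 16.9% of all tested genes. Il1b, Il33 and Ccl22 were listed at 0 in some Control libraries and reached the minimum mean of 1 TPM through their Experimental levels. Nothing is therefore read from this count. Ccl20, a chemokine that draws CCR6-bearing cells, had 30.5, 36.1, 49.4 and 51.4 TPM in Experimental epidermis and 11.97, 14.6, 8.90 and 12.5 TPM in Control epidermis. No Experimental library overlapped a Control library (log2 difference 1.71, SE 0.22, limma adjusted p 0.00383), and leaving out Experimental libraries 2 and 4 together took its limma adjusted p to 0.103. Il1b had 2.94, 2.17, 2.53 and 2.97 TPM in Experimental epidermis and 0, 0, 0 and 1.96 TPM in Control epidermis (limma adjusted p 0.0649). Tslp, an alarmin tied to Netherton syndrome, was at 0 in every library, as were Camp, Cxcl1 and Tnf. Over all 62 tested genes of these further lists 3 rose and 0 fell, or 4.84%, beside 2.46% of all tested genes. Only Ccl20 passed when any single Experimental library was left out. All these lists were chosen with earlier results of these data known, so the shares support nothing.

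The authors' deposited differential expression table, whose 748 entries all have a fold change below 0, holds 0 of the 10 genes. Of its 744 genes matched in the expression table, 640 had a lower mean in Experimental epidermis, 0 a higher one, and 104 were at 0 in every library, so the fold change was read as Experimental over Control. In the authors' deposited table Tmprss11e has a log2 fold change of -2.20 (adjusted p 0.0135). Capn12 has -1.75 (adjusted p 0.0241) and Klk15 has -2.94 (adjusted p 0.0272) in the authors' deposited table. The authors' deposited splicing table names 236 genes, of which 0 are among the 10 and 1, Stfa3, is among the further lists.

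Across the 8 libraries the gene nearest to Spink7, by the root-mean-square difference of centred log2(TPM + 1) among 7448 tested genes with a mean of at least 5 TPM, was Rptn at 0.50, followed by Sprr1b at 0.59, where Spink7 itself deviated by 1.92 from its mean. Rptn encodes repetin and Sprr1b a small proline-rich protein, both parts of the cornified envelope. Rptn averaged 107 ± 30.8 TPM in Experimental epidermis and 12.7 ± 4.25 TPM in Control epidermis. For Spink12, with its own deviation of 1.48, the nearest were Fetub at 0.48 and Sprr2h at 0.52. Fetub had 19.9, 9.68, 14.1 and 2.03 TPM in Experimental epidermis and 1.54, 0, 0 and 0 TPM in Control epidermis, with library 4 lowest of the Experimental group as for Spink12. For Klk13, with its own deviation of 0.63, they were the late cornified envelope genes Lce1j at 0.19 and Lce1f at 0.20. For Klk10, with its own deviation of 0.70, they were Mical1 at 0.14 and Ttyh2 at 0.15, both of which were highest in Control library 4. Closeness over 8 libraries is a description and holds the group difference itself.

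The kallikrein genes lie in a row on the plus strand of chromosome 7 from 43712567 to 43851181 (GRCm38), in the order Klk13, Klk12, Klk11, Klk10, Klk9, Klk8, Klk7, Klk6 and Klk5. Klk10 and Klk5 had lower means in Experimental epidermis, and the other genes of the row had higher ones, with Klk12 near the 1 TPM limit. The groups overlapped for every gene of the row except Klk11, Klk8 and Klk5. Klk10, at 43781035 to 43785410, lies between Klk11, at 43774604 to 43779263, and Klk9, at 43791891 to 43796757, and had a lower mean in Experimental epidermis while both flanking genes had higher means there. Klk5, at 43841971 to 43851181, ends the row and had a lower mean, and Klk6 next to it had a higher one. Klk8 lies at 43797577 to 43803826, Klk7 at 43811294 to 43816359 and Klk13 at 43712567 to 43727534. Of the 3 genes in the row that are not among the 10, Klk6 and Klk9 were tested and neither passed the limma threshold.

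**Figure D4:**
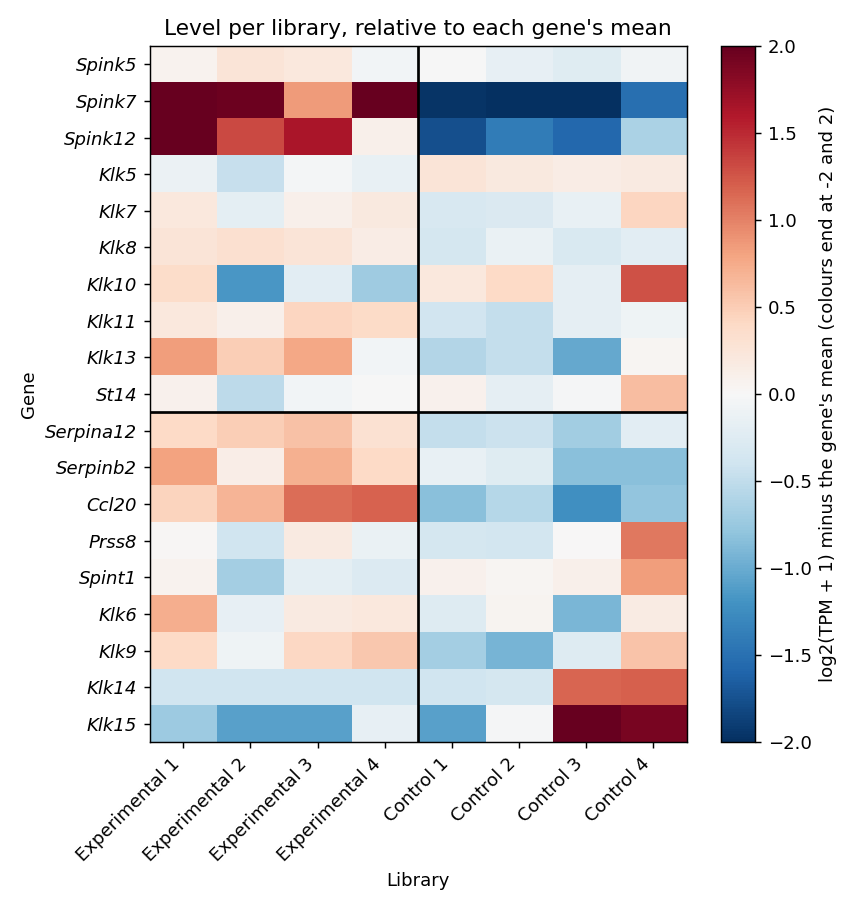
log2(TPM + 1) minus each gene's mean over the 8 libraries for the 10 genes (above the line) and further pathway genes (below it), Experimental libraries left of Control libraries, with colours ending at -2 and 2. Control library 4 is high for Klk7, Klk10, St14, Prss8 and Spint1, and Control libraries 3 and 4 are high for Klk14 and Klk15.

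Single libraries stood out within the groups. Control library 4 was the highest Control library for 7 of the 10 genes, and Experimental library 2 was the lowest of its group for 5 and Experimental library 4 for 4. Mitochondrially encoded transcripts were 18.2% of TPM in Experimental library 2 and 17.5% in Experimental library 4, and 10.6% to 12.6% in the other 6 libraries. The summed level of 11 granular keratinocyte markers, the layer that makes kallikreins, was 37896 to 60068 TPM in Experimental libraries, against 54731 TPM in Control library 4 and 36586 to 38831 TPM in the other Control libraries. Most of that sum was Lor and Flg in every library. Of the 11, 0 passed the limma threshold (2 had an unadjusted p under 0.05), 9 were above 0 and 2 below, and the median log2 difference was 0.19, beside -0.18 over all tested genes. Hair follicle markers, 17 in the table, summed to 1763 to 12488 TPM in Experimental libraries and 7267, 14718, 22534 and 52987 TPM in Control libraries. All 16 tested were below 0, with a median log2 difference of -1.57, 10 at an unadjusted p under 0.05 and 0 past the limma threshold. Sebaceous gland markers summed to 113 to 184 TPM in Experimental libraries and 239 to 598 TPM in Control libraries, and 2 of 10, Elovl3 and Plin2, fell, with 6 at an unadjusted p under 0.05 and all 10 below 0. Basal keratinocyte markers summed to 1715 to 2951 TPM in Experimental libraries and 905 to 7952 TPM in Control libraries, and 1 of 6, Krt15, fell. All 6 were below 0, with a median log2 difference of -0.63. Of the 6 fibroblast markers, Dcn had 2.94, 3.29, 1.06 and 0 TPM in Experimental epidermis and 24.7, 4.17, 1.102 and 0 TPM in Control epidermis, and Col1a1, Col1a2 and Col3a1 were listed at 0 in every Experimental library and at up to 1.82 TPM in Control libraries 1 and 2. Endothelial and erythroid markers summed to 147 to 2814 TPM in Experimental libraries and 116 to 6381 TPM in Control libraries, all of it from the erythroid genes Hba-a1, Hbb-bs, Hbb-bt and Alas2. Of the markers of other cells, Pecam1, Cdh5 and Kdr (endothelium), Lum and Pdgfra (fibroblasts) and 7 of 10 neutrophil and mast cell genes were at 0 in every library. Melanocyte markers summed to 34.9 to 81.6 TPM in Experimental libraries and 59.0 to 148 TPM in Control libraries, and T cell markers to 4.83 to 19.7 TPM in Experimental libraries and 1.84 to 19.3 TPM in Control libraries. Langerhans cell and macrophage markers summed to 569 to 738 TPM in Experimental libraries and 665 to 978 TPM in Control libraries. Epcam, a large part of that sum, was highest in Control library 4 at 472 TPM, where Cd74 was lowest at 85.2 TPM. Cd74 ran from 124 to 245 TPM in Experimental libraries and from 85.2 to 335 TPM in Control libraries. The part of mitochondrial share, granular, basal, cell cycle, hair or sebaceous transcripts in the differences above was not tested.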

How the data were processed

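The authors' deposited expression table gives log2 values of TPM per gene. Salmon 0.14.0, STAR, DESeq and SAMtools 1.9 and the genome names mm10 and GRCm38 appear in the submitters' processing notes, with no roles given. Against the mean normalized count signal in the authors' deposited differential table, the ratio of count per kilobase to TPM was 0.88 to 0.99 of that of the most abundant genes when values were read as log2 TPM, and up to 1.43 when read as log2(TPM + 1), so the first reading was used, with a 0 standing for 1 TPM or less. The design had assumed log2(TPM + 1), and values were turned back to TPM first. That table also gives, per the file headers, log2 fold changes, a test score and p-values. The authors' deposited splicing table gives PSI as a fraction and a posterior probability score for each junction, and was used only to look up genes. Of 21690 IDs, 21662 had a symbol.

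Values under 1 TPM were raised to 1 and all were tested as log2(TPM + 1) with limma 3.58.1 (R 4.3.3, eBayes with trend, group as the only term, two-sided, Benjamini-Hochberg adjusted p under 0.05) in 10682 genes with a mean of at least 1 TPM, and the fit was tested on simulated data. For the mean used in that filter, values at or under 1 TPM were taken as 0. TPM keeps no depth, so depth is unknown and no interval is printed. The members and lists were chosen with earlier results of these data known. All 10 genes were named, as were up to 4 passing genes a list, or the 2 of lowest p where none passed, the 2 genes nearest in pattern to Spink7, Spink12, Klk10 and Klk13, and passing genes within the Spink and kallikrein stretches. Further genes shown (Klk6, Klk9, Prss8, Spint1, Spint2, Slpi, Il1b, Il33, Ccl22, Tslp, Camp, Cxcl1, Tnf) were chosen after their values were seen. So were the single markers given by name that did not pass. Alternatives were other pseudocounts, filters, scalings and left-out libraries. Column numbers match no replicate number of the labels, so columns were assigned to groups only.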

Additional observations from a re-analysis of the deposited data

Results flagged for a closer look

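For 33 of the genes whose library values or means are given here, 65 groups of 4 libraries were tested by Dixon's critical value. The test looks for a library apart from the other 3, and 7 groups had one, where chance marks about 1 in 20. The cell type markers, Dcn among them, were not tested in this way. Spink7 in Control library 4 was at 1.937 TPM and at 1.087 to 1.14 TPM in the other Control libraries, a gap of 0.938 of the group's range. Spint1 in Control library 4 was at 130.7 TPM and at 75.3 to 78.6 TPM in the other Control libraries. Cdsn in Control library 4 was at 1314 TPM and at 545 to 641 TPM in the other Control libraries, and in Experimental library 2 it was at 772.9 TPM and at 1095 to 1114 TPM in the other Experimental libraries. Esrp1 in Control library 4 was at 162 TPM and at 131 to 135 TPM in the other Control libraries. Il1b in Control library 4 was at 1.964 TPM and Fetub in Control library 1 at 1.539 TPM, each listed at 0 in the other Control libraries. With the others tied at 0, any value above 1 TPM would be marked, so the rate of about 1 in 20 does not apply to Il1b and Fetub.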

How the results depend on the processing

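Of all genes tested, 263 passed the limma threshold (98 higher, 165 lower), against 385 with median centring (283 higher, 102 lower) and 386 with quantile normalization (269 higher, 117 lower). The median log2 difference of all genes was -0.18, and 0.03 and 0.02 under those scalings. The number was 2595 with Control libraries 3 and 4 left out, 544 with Control libraries 1 and 2 left out, 15 with Experimental libraries 2 and 4 left out, and 85 to 578 with single libraries left out. Of the 10 genes, 2 were past it, 4 with quantile normalization, 5 with Control libraries 3 and 4 left out, and 1 to 3 with single libraries left out. Of the further pathway genes, 3 were past it, 5 with quantile normalization, 6 with median centring, 15 with Control libraries 3 and 4 left out, 12 with Control libraries 1 and 2 left out, 0 with Experimental libraries 2 and 4 left out, and 1 to 9 with single libraries left out; the cause was not tested. The log2 difference of Prss8, -0.17, was 0.041 with median centring, -0.32 to 0.15 with single libraries left out (above 0 only without Control library 4), 0.28 with Control libraries 3 and 4 left out and 0.011 with Experimental libraries 2 and 4 left out. Klk7 alone of the 10 changed sign, in 1 of 18 settings, without Control libraries 1 and 2. Serpina12 passed in 11 of 18 settings (limma adjusted p 0.00573 to 0.201), Serpinb2 in 9 (0.0056 to 0.175) and Ccl20 in 17 (0.00173 to 0.103). No paired analysis was possible because the column numbers match no replicate number of the labels. Groups of 4, unknown depth and the 1 TPM limit bound what can be read from Spink7 and Spink12 in Control epidermis.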

Other observations

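Other genes between Spink5 and Spink12 on chromosome 18 (0.145 Mb) numbered 2, of which 1 was tested and 0 passed the limma threshold. Between Spink5 and Spink7, 18.63 Mb apart at their outer ends, lay 104 other genes in the table. Of the 51 tested there, 0 rose and 1, Lmnb1, which encodes the nuclear lamina protein lamin B1, fell.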
